A study of Mus musculus with 2 samples.

Results

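Polycomb repressive complex 1 (PRC1) is described here by 10 of its genes in the mouse embryonic stem cell line E14, labelled wild type. The genes are Rnf2, Ring1, Pcgf1, Pcgf2, Pcgf3, Pcgf6, Cbx7, Kdm2b, Rybp and Bcor. They were taken by symbol and matched to the Ensembl identifiers of both deposited count tables, and all 10 were found among 43629 gene identifiers. The list is a selection: PCGF genes such as Bmi1 and Pcgf5 and several CBX genes are not in it and are given beside it as paralogs.

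The study sequenced polyadenylated RNA from E14 cells of 129/Ola background in 2 libraries, both of genotype wild type, with no treatment named. The labels give blastocyst as the tissue and P33 for the first library and P42 for the second as the age, without saying what these stand for in a cell line. The libraries are called P33 and P42. Nothing in the labels says whether they came from separate cultures, so the spread between them may be partly technical. The difference between P33 and P42 rests on 1 library each and has no replicate check.

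PRC1 is an E3 ubiquitin ligase that attaches ubiquitin to histone H2A at repressed genes. Each assembly pairs a catalytic RING protein, RING1B (Rnf2) or RING1A (Ring1), with a PCGF protein that decides which other subunits join. Canonical PRC1 is built on PCGF2 or BMI1 and carries a CBX protein, whose chromodomain reads the methyl mark laid by Polycomb repressive complex 2, and a PHC protein. Variant assemblies carry RYBP or its paralog YAF2 in place of the CBX protein. PRC1.1 is built on PCGF1 with BCOR and KDM2B, which recruits it to unmethylated CpG islands, PRC1.3 and PRC1.5 on PCGF3 and PCGF5, and PRC1.6 on PCGF6 with MGA, MAX, E2F6 and L3MBTL2. In embryonic stem cells PRC1 holds developmental regulators silent, and PRC1.6 is known for silencing genes of the germ line.

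Promoter sequence is shown for Rnf2 and Ring1, the catalytic paralogs that stood at opposite ends of the order of levels, and for Pcgf6, the gene of the list that differed most between the libraries among those whose chromosome had a median near 0. Each line gives the 120 bases before the RefSeq start (GRCm38.p6), 5′ to 3′ on the strand of the gene, with every CpG in capitals. Rnf2 is at chr1:151500992-151501111, Ring1 at chr17:34024681-34024800 and Pcgf6 at chr19:47050907-47051026, all on the minus strand.
Rnf2: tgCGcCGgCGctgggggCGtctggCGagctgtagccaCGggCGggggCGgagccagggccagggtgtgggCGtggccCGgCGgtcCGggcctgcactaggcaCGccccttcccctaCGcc
Ring1: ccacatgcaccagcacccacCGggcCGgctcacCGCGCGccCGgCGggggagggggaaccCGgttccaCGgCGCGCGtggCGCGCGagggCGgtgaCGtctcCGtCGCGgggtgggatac
Pcgf6: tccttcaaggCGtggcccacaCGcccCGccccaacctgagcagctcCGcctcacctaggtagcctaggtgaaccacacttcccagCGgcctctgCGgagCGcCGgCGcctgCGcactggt

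These stretches held 14 CpG for Rnf2, 20 for Ring1 and 10 for Pcgf6. Ring1, the gene of lowest level, had the most. Over the whole RefSeq window, from 250 bases before to 50 after the start, 8 of the 10 genes had an entry, and their windows held from 10 CpG for Pcgf2 to 49 in one of the 4 windows of Kdm2b. The median over all 32851 windows was 7. The sequence is that of the C57BL/6J reference and not of the 129/Ola cells.

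The libraries held 40139219 counts (P33) and 39657578 counts (P42). Library sizes were scaled by the trimmed mean of M values (TMM), and levels are given in CPM, of which 1 stood for 42.2 counts in P33 and 37.8 in P42. All 7 markers of pluripotent stem cells were detected, that is at 1 CPM or more in both libraries, with summed levels of 5227 CPM in P33 and 5799 in P42. Detected were 5 of 7 markers of primitive endoderm (summed 32.8 and 108.1 CPM), 3 of 7 of trophectoderm (68.3 and 52.5), 4 of 5 neural (57.6 and 55.1), 1 of 4 of mesendoderm (3.84 and 7.92) and 1 of 7 of fibroblasts (31.3 and 25.3), where Dcn, Lum and Postn had 0 counts. The largest part of the sum was Dab2 in primitive endoderm (16.8 and 63.0 CPM) and Tfap2c in trophectoderm (35.8 and 39.5). It was Tubb3 in the neural list (28.9 and 33.9), Eomes in mesendoderm (3.27 and 6.49) and Thy1 in fibroblasts (29.8 and 24.7). Of the markers whose mean reached 1 CPM, all 6 of primitive endoderm were higher in P42, with log2 ratios from 1.37 to 2.11. Directions were mixed in the pluripotent, neural and trophectoderm lists, where 5 of 7, 3 of 4 and 1 of 4 such markers were higher in P42. The log2 ratio of P42 over P33 was 1.03 for Sox2 and −0.67 for Pou5f1 (pluripotent), −2.76 for Neurod1 (neural), and −2.60 for Krt7 and −1.57 for Krt8 (trophectoderm, both on chromosome 15). In bulk RNA fewer cells of a type and less RNA per cell cannot be told apart.

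All 10 PRC1 genes were detected. To compare genes with each other, levels are given in CPM per kb of merged exons, with the mean ± SD of the 2 libraries, and the median was, over the 13737 genes whose mean reached 1 CPM, 5.78 CPM per kb. Of the 10 genes 6 lay above that median and 4 below it (Kdm2b, Pcgf1, Bcor and Ring1).

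Of the catalytic subunits, Rnf2 had the highest level of the 10 genes, with 40.9 CPM per kb in P33 and 78.8 in P42, a mean of 59.9 ± 26.8 (SD, n = 2). Ring1 had the lowest, with 1.41 in P33 and 1.21 in P42, a mean of 1.31 ± 0.144 (SD, n = 2), from 193 and 148 counts. The ratio of Rnf2 to Ring1 was 29.0 in P33 (25.1 to 33.6, 95% counting interval) and 65.2 in P42 (55.5 to 77.2). Rnf2 thus made up 96.7% of the summed RING level in P33 and 98.5% in P42. Of the 10 genes, Rnf2 has the lowest GC content, 39.5%, and Ring1 the highest, 56.9%. The log2 ratio of P42 over P33 was 0.95 for Rnf2 and −0.22 for Ring1. With the trend on GC content and length removed, as described below, it was 0.59 and 0.05.

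Among the PCGF genes, which set the identity of each assembly, the highest was Pcgf6, the PRC1.6 subunit, at 16.2 CPM per kb in P33 and 30.3 in P42, a mean of 23.2 ± 9.95 (SD, n = 2). Pcgf2, also called Mel18, stood at 14.5 and 19.8, a mean of 17.2 ± 3.72 (SD, n = 2), and the ranges of these genes over the libraries overlapped. Pcgf3 followed at 9.48 and 11.02, a mean of 10.2 ± 1.09 (SD, n = 2), below both genes in each library. Pcgf1 was lower, at 4.22 and 4.45, a mean of 4.33 ± 0.165 (SD, n = 2), with 293 and 277 counts.

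The PCGF paralogs outside the list were lower still. Bmi1, the alternative to Pcgf2 in canonical PRC1, had a mean of 1.26 ± 0.423 CPM per kb and Pcgf5, the paralog of Pcgf3, one of 1.34 ± 0.116 (SD, n = 2). Pcgf2 exceeded Bmi1 by a ratio of 9.33 in P33 (8.20 to 10.6) and 20.6 in P42 (17.4 to 24.6). Pcgf3 exceeded Pcgf5 by 6.66 in P33 (6.16 to 7.21) and 8.75 in P42 (8.02 to 9.54). As shares of the summed level of the 6 PCGF genes, Pcgf6 took 34.2% in P33 and 44.7% in P42, Pcgf2 30.7% and 29.2%, Pcgf3 20.0% and 16.3%, Pcgf1 8.89% and 6.57%, Bmi1 3.29% and 1.42%, and Pcgf5 3.004% and 1.86%. The order of these shares was the same in both libraries except for its last places, where Bmi1 lay above Pcgf5 in P33 and below it in P42. With longest-transcript lengths Pcgf5 lay above Bmi1 in both.

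The chromodomain gene Cbx7 stood at 31.0 CPM per kb in P33 and 22.6 in P42, a mean of 26.8 ± 5.97 (SD, n = 2). It took 67.5% of the summed level of 4 CBX genes in P33 and 67.2% in P42. Cbx2 followed with 17.04% and 19.7% and Cbx6 with 15.3% and 13.04%. Cbx8 had 12 and 3 counts and lay under 1 CPM. Cbx7 exceeded Cbx2 by a ratio of 3.96 in P33 and 3.42 in P42, and the Cbx7 share moved by less than 1 percentage point between the libraries. Among the PHC genes of canonical PRC1, Phc1 stood at 76.6 ± 27.4 CPM per kb (SD, n = 2) and took 94.9% of the summed level in P33 and 92.5% in P42.

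Of the subunits of the variant assemblies, Rybp, shared by all of them, had 28.0 CPM per kb in P33 and 26.8 in P42, a mean of 27.4 ± 0.837 (SD, n = 2), with 5592 and 4798 counts. Its paralog Yaf2 had a mean of 5.26 ± 1.84 (SD, n = 2), and the ratio of Rybp to Yaf2 was 7.06 in P33 (6.30 to 7.94) and 4.09 in P42 (3.71 to 4.50). Kdm2b, the CpG island binding subunit of PRC1.1, stood at 6.36 and 4.53, a mean of 5.45 ± 1.296 (SD, n = 2). Bcor, the PRC1.1 scaffold, stood at 4.27 and 2.63, a mean of 3.45 ± 1.16 (SD, n = 2). Its paralog Bcorl1, at 1.92 ± 0.0453 (SD, n = 2), took 30.7% of the summed level of the pair in P33 and 42.6% in P42. The other PRC1.1 partners were far more abundant, with Skp1a, a subunit of many ubiquitin ligases, at 231 ± 39.1 and the deubiquitinase gene Usp7 at 106 ± 2.87 (SD, n = 2). Both serve many other processes.

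**Figure D1:**
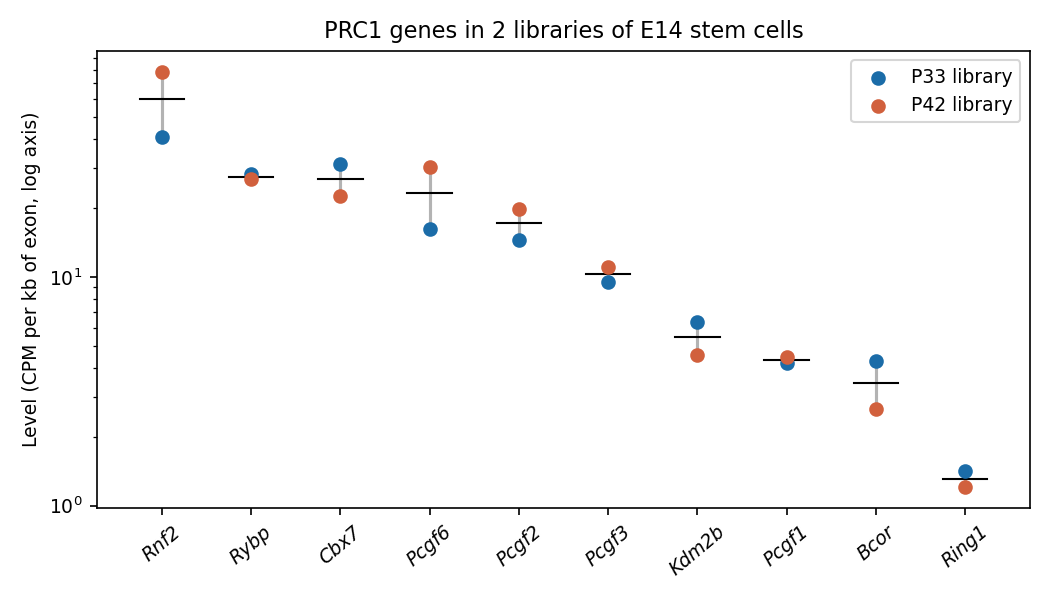
Level of each of the 10 PRC1 genes in the P33 and P42 libraries, in CPM per kb of merged exon on a log axis, ordered by mean (black bars). Rnf2 lies above the other 9 genes in both libraries and Ring1 below them, while the ranges of Rybp, Cbx7, Pcgf6 and Pcgf2 overlap from each gene to the next.

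In the order of mean levels, Rnf2, Rybp, Cbx7, Pcgf6, Pcgf2, Pcgf3, Kdm2b, Pcgf1, Bcor, Ring1, the ranges of neighbours overlapped from Rybp to Cbx7, Cbx7 to Pcgf6, Pcgf6 to Pcgf2 and Pcgf1 to Bcor. The other neighbours did not overlap. When the length of the longest annotated transcript replaced that of the merged exons, Pcgf6 reached 41.2 CPM per kb in place of 23.2 and moved to second place, Kdm2b 11.4 in place of 5.45 and Pcgf1 7.78 in place of 4.33. The order of the other 9 genes among themselves did not move. Kdm2b has 20 annotated transcripts, 8 of them protein-coding, and the counts are per gene, so its long form with the demethylase domain and its short form without it cannot be told apart.

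**Figure D2:**
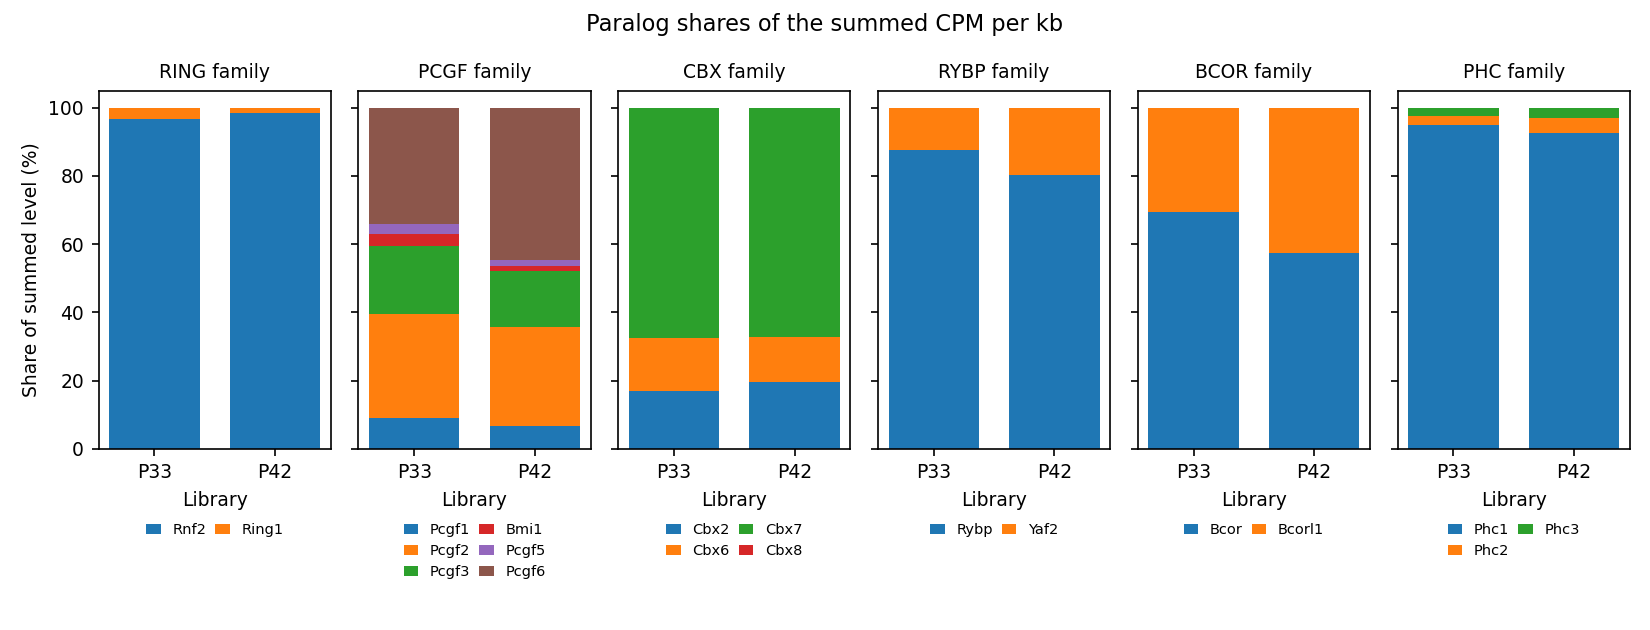
Share of each paralog in the summed level (CPM per kb of merged exon) of its family, in percent, for the P33 and P42 libraries; each bar adds to 100. Rnf2, Phc1 and Cbx7 fill most of their bars in both libraries, and the Pcgf6 part of the PCGF bar is 34.2% in P33 and 44.7% in P42.

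Between the libraries, none of the 10 PRC1 genes was called different. A gene was called when its mean reached 1 CPM, its levels were 2-fold or more apart and the exact 95% interval of the ratio, which covers counting error only, excluded equality. Of all 13737 genes 5.07% were called higher in P42 (697 genes) and 9.54% lower (1310), or 466 and 1658 genes when libraries were scaled by total counts, which lowers each log2 ratio by 0.14. The median log2 ratio of P42 over P33 was 0.01 for the 10 genes and 0.04 over all genes, and the median size of the ratio without its sign was 0.45 against 0.41. Above 0 lay 5 of the 10 genes and below 0 the other 5, and with total counts 4 and 6.

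The genes closest to the 2-fold limit were higher in P42. Rnf2 stood at 168.8 CPM in P33 and 325.3 in P42, a log2 ratio of 0.95 (0.90 to 0.99), from 7117 and 12284 counts. Pcgf6 stood at 81.4 CPM in P33 and 152 in P42, a log2 ratio of 0.90 (0.84 to 0.96). Bcor lay farthest in the other direction, at 37.0 CPM in P33 and 22.8 in P42, a log2 ratio of −0.70 (−0.82 to −0.58). At a limit of 1.5-fold these 3 genes would be called, with Rnf2 and Pcgf6 among the 16.1% of all genes that were higher at that limit and Bcor among the 18.9% that were lower. With the trend on GC content and length removed, as described below, Bcor stood at −0.49 and would not pass that limit. Under that setting Rnf2 stood at 0.59, barely past the limit, and Pcgf6 at 0.65.

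The remaining 7 genes differed less. The PRC1.1 gene Kdm2b, at 69.2 CPM in P33 and 49.3 in P42, had a log2 ratio of −0.49 (−0.57 to −0.41), and Cbx7, at 201 and 146 CPM, one of −0.46 (−0.51 to −0.41). Pcgf2, at 51.2 and 69.8 CPM, had a log2 ratio of 0.45 (0.36 to 0.53) and Pcgf3, at 90.5 and 105 CPM, one of 0.22 (0.15 to 0.28). Rybp had the smallest ratio under this scaling, −0.06 (−0.12 to −0.01), at 133 and 127 CPM, and one of −0.20 with total counts. For Pcgf1, at 6.95 and 7.34 CPM with 0.08 (−0.16 to 0.32), and Ring1, at 4.58 and 3.92 CPM with −0.22 (−0.54 to 0.09), the interval included 0, so a difference was not detectable at this depth.

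**Figure D3:**
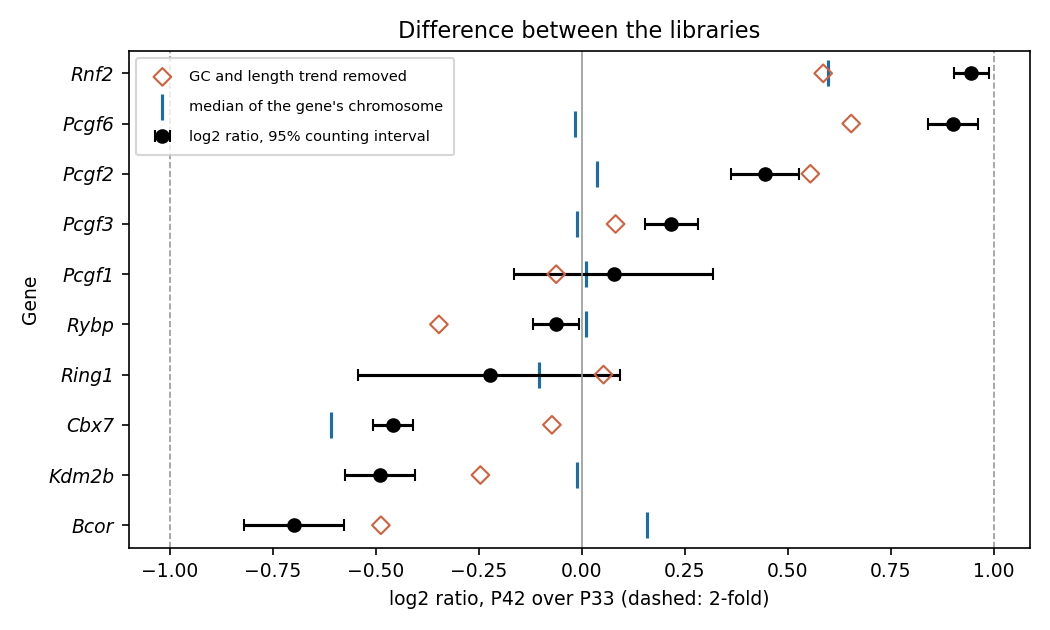
Log2 ratio of P42 over P33 for the 10 PRC1 genes with exact 95% counting intervals (black), the ratio after removal of the trend with GC content and exon length (orange diamonds) and the median of the genes of the same chromosome whose mean reached 1 CPM (blue bars). All 10 black points lie between the dashed 2-fold limits, and the bars of Rnf2 (chromosome 1) and Cbx7 (chromosome 15) stand apart from 0.

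The position of a gene and its base composition moved with these ratios. Rnf2 lies on chromosome 1 (151458004 to 151500955, mm10), where 684 of 847 genes were above 0 and the median log2 ratio was 0.60. Cbx7 lies on chromosome 15 (79915807 to 79971119), where 89 of 539 genes were above 0 and the median was −0.61. Relative to the median of its chromosome Rnf2 stood at 0.35 and Cbx7 at 0.15. For Pcgf6, on chromosome 19 (47033617 to 47050906), the chromosome median was −0.02, and for Bcor, on the X chromosome (12036740 to 12160355), 0.16, so that they stood at 0.92 and −0.86 relative to it. The other genes lie on chromosome 17 (Ring1, 34020792 to 34024680), chromosome 6 (Pcgf1, 83077869 to 83080855, and Rybp, 100228565 to 100287485), chromosome 11 (Pcgf2, 97688823 to 97700497) and chromosome 5 (Pcgf3, 108461232 to 108506976, and Kdm2b, 122870665 to 122989823), whose medians lay between −0.10 and 0.04.

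Across all genes, which are not independent, Spearman's rho between the log2 ratio and GC content, taken from the longest transcript, was −0.39, and across the 10 genes it was −0.55. Rnf2, with 39.5% the lowest GC content of the 10, is to be read beside a median of 0.35 for the 633 genes within 1 percentage point of its GC content. Cbx7, with 56.4%, is to be read beside a median of −0.32 for 1201 such genes. With the trend on GC content and exon length removed, Rnf2 had a ratio of 0.59, Pcgf6 0.65, Pcgf2 0.56, Cbx7 −0.07, Kdm2b −0.25, Rybp −0.35 and Bcor −0.49. The part of chromosome and base composition in the ratio of any single gene was not tested.

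Ratios between subunits of 1 library do not depend on library scaling but do depend on the gene length used, here that of merged exons. Rnf2 stood to Rybp at 1.46 in P33 (1.41 to 1.51) and at 2.94 in P42 (2.84 to 3.04). Pcgf6 stood to Pcgf2 at 1.11 in P33 (1.06 to 1.18) and at 1.53 in P42 (1.46 to 1.602). Pcgf6 stood to Pcgf1 at 3.84 (3.41 to 4.34) and 6.80 (6.03 to 7.70). Kdm2b stood to Bcor at 1.49 (1.4001 to 1.58) and 1.72 (1.59 to 1.87), the pair of these 4 whose intervals came closest to each other. The intervals cover counting error only, and neither they nor the ratios take account of the GC content or chromosome of the genes. With longest-transcript lengths Rnf2 stood to Rybp at 1.79 in P33 and 3.60 in P42, and Pcgf6 to Pcgf2 at 1.39 and 1.91. Pcgf6 then stood to Pcgf1 at 3.80 and 6.72, and Kdm2b to Bcor at 2.50 and 2.89. All of these are ratios of RNA and not of protein in the complex.

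The other genes of the pathway were taken from lists of 37 genes for the remaining PRC1 subunits, their partners and enzymes that remove ubiquitin from H2A. Of these 36 reached a mean of 1 CPM, and 1 was called, lower in P42, beside 5.07% of all genes called higher and 9.54% lower. The gene called was L3mbtl2, the MBT domain subunit of PRC1.6. It stood at 226 CPM in P33 and 87.7 in P42, a log2 ratio of −1.36 (−1.42 to −1.31). L3mbtl2 lies on chromosome 15 and stood at −0.75 relative to its median. The median of the 36 genes was 0.07, with 22 above 0 and 14 below.

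The genes of canonical PRC1 lay mostly below 0, without a call at 2-fold. Together with Pcgf2 and Cbx7 the list has 11 genes, of which Cbx8 was under 1 CPM, and 8 of the remaining 10 lay below 0 with a median of −0.55 (9 with total counts and 7 after removal of the GC and length trend), beside 6502 of all 13737 genes. At 1.5-fold 5 were lower, against the 18.9% of all genes: Phc1, at 508 CPM in P33 and 303 in P42 with −0.75 (−0.78 to −0.71), Scml2 with −0.97 (−1.20 to −0.73), Bmi1 with −0.70 (−1.003 to −0.40), Cbx6 with −0.68 (−0.77 to −0.60) and Scmh1 with −0.64 (−0.82 to −0.46). Cbx2 had a ratio of −0.25, Phc3 −0.37 and Phc2 0.03, and Pcgf2, at 0.45, was the gene of this assembly that went farthest the other way. With the trend on GC content and length removed the median was −0.30, and Bmi1 and Scml2 were called lower at −1.06 and −1.22. Under that setting 1128 of all 13737 genes were called lower. Cbx6 and Cbx7 lie on chromosome 15.

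Of all 13737 genes 7235 lay above 0 with TMM scaling, to be read beside the counts of each list that follows. The PRC1.6 assembly, Pcgf6 with 9 partners, had 8 genes above 0 and a median of 0.22. With total counts 7 of its genes lay above 0, and after removal of the GC and length trend 6, with a median of 0.09. Its DNA-binding subunits ran both ways, with E2f6 at 0.79 (0.67 to 0.92), Max at 0.57 (0.50 to 0.63) and Mga, the large scaffold, at −0.38 (−0.41 to −0.35). Wdr5 at 111.5 ± 9.01 CPM per kb and Hdac2 at 61.1 ± 6.33 (SD, n = 2) were its most abundant genes, both shared with other chromatin complexes, and had ratios of 0.17 and 0.21. In PRC1.1, with 6 genes, the median was 0.05, with Kdm2b and Bcor below 0 and Skp1a at 0.35, Usp7 at 0.06 and Bcorl1 at 0.05 above. Only 1 of these 6 genes lay above 0 with total counts, and only 1 with the trend removed, where the medians were −0.09 and −0.08. In PRC1.3 and PRC1.5, with 9 genes, the median was 0.06, −0.08 with total counts and 0.29 after removal of the trend, and the casein kinase genes Csnk2a1 at 0.81 and Csnk2b at 0.73 were the highest. Yaf2 had a ratio of 0.73 (0.52 to 0.94), on a chromosome with a median of −0.61. Of 7 genes for H2A deubiquitinases and their partners 6 lay above 0, and 5 under either other scaling, with Asxl1 at 0.35 and Usp21 at 0.66, which is 0.06 above the median of its chromosome, chromosome 1, and Bap1, which encodes the enzyme that pairs with ASXL proteins, lay at −0.39.

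**Figure D4:**
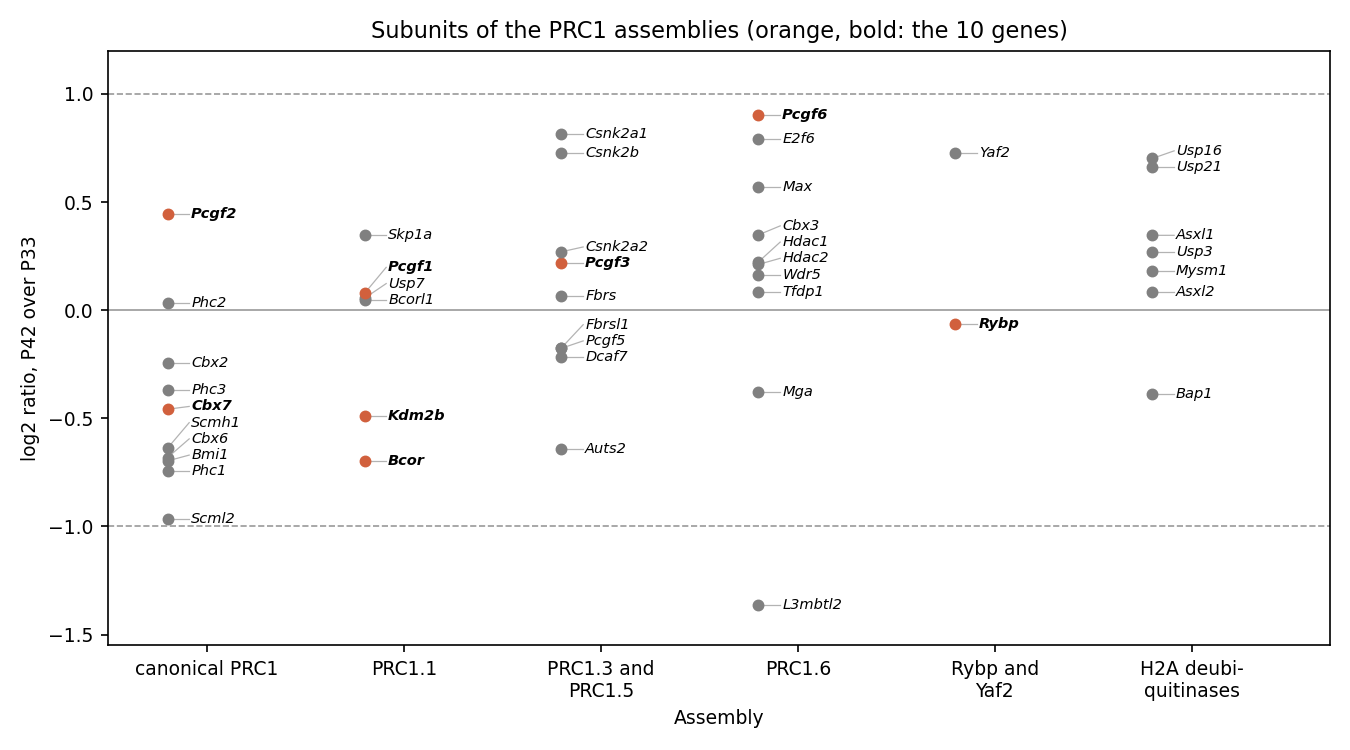
Log2 ratio of P42 over P33 for genes of each PRC1 assembly and for H2A deubiquitinase genes whose mean reached 1 CPM; the 10 genes of the list other than Rnf2 and Ring1, which all assemblies share, are in orange. In canonical PRC1 8 of 10 genes lie below 0, in PRC1.6 8 of 10 lie above (9 and 7 with total counts), and L3mbtl2 is the single gene past the dashed 2-fold limit. Of all 13737 genes 6502 lay below 0 and 7235 above.

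Genes of the germ line that PRC1.6 is known to silence in stem cells were not uniformly low. Their levels lay on both sides of the median of all genes whose mean reached 1 CPM, 5.78 CPM per kb. Of 14 such genes 13 were detected, with summed levels of 390 CPM in P33 and 413 in P42. Stag3, a meiotic cohesin gene, stood at 96.9 CPM in P33 and 158 in P42. Per kb of exon Sycp3 at 27.7 ± 11.5, Mael at 27.5 ± 2.10 and Stag3 at 22.2 ± 7.48 CPM per kb (SD, n = 2) had the highest means of the list. The list differed in both directions between the libraries, with a median log2 ratio of −0.15, or −0.51 with the GC and length trend removed. None was called higher and 4 were called lower, beside 5.07% and 9.54% of all genes: Smc1b, another meiotic cohesin gene, at 49.8 and 18.6 CPM with −1.42 (−1.548 to −1.299), the piRNA pathway gene Mov10l1 at 34.5 and 15.2 CPM with −1.19 (−1.33 to −1.05), the meiotic chromosome axis gene Hormad1 at 11.4 and 4.42 CPM with −1.36 (−1.63 to −1.11), and Tex101 with 134 and 11 counts and −3.39 (−4.48 to −2.56). Tex101 passed the minimum through P33 alone. Smc1b and Mov10l1 lie on chromosome 15. Sycp3 at 0.87, Ddx4 at 0.71 and Stag3 at 0.70 lay highest.

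**Figure D5:**
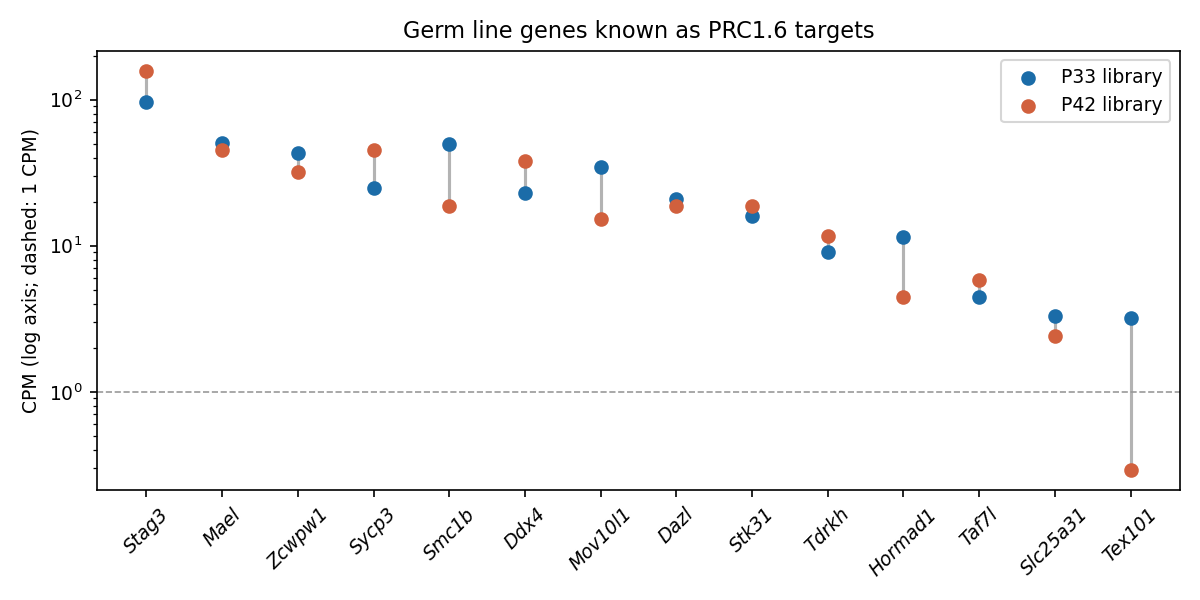
CPM on a log axis in the P33 and P42 libraries for 14 germ line genes known as PRC1.6 targets, ordered by mean. Smc1b, Mov10l1, Hormad1 and Tex101 are lower in P42 by more than 2-fold, and Tex101 alone lies under 1 CPM (dashed) in a library.

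MAX and MGA bind the E-box, and E2F6 binds sites of the E2F type, so the RefSeq windows of these genes were searched for the letters CACGTG, which read the same on both strands, and for TCCCGC on either strand. CACGTG was found in 9 of the 14 genes, 64.3%, against 8.09% of all 27025 genes with a window and 12.8% of the 10038 genes whose window holds 15 or more CpG. TCCCGC or its reverse complement GCGGGA was found in 7 of 14, 50%, against 22.05% and 47.8%. Among the 8 PRC1 genes with a window CACGTG was found in 1, Pcgf2. The lines below give, 5′ to 3′ on the strand of the gene, the CACGTG nearest the start in the 6 genes where it lies within 100 bases before it, with 10 bases on each side and the match in capitals. They are shown because they are the sites at which the PRC1.6 subunits MGA and MAX could be looked for. A match is a description of the letters and not a bound site.
Ddx4: cgtccgcccgCACGTGcagccgttta
Sycp3: gggcatggagCACGTGctaggaggcg
Taf7l: cctcttatacCACGTGacagaactcg
Stk31: gccggccaccCACGTGaccagggctg
Hormad1: gcgcactgcgCACGTGctgaccggag
Slc25a31: caactggaaaCACGTGttatggtcac

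In these 6 genes the levels did not share a direction. Ddx4, at chr13:112652324-112652349, stood at 23.1 CPM in P33 and 37.9 in P42, and Sycp3, at chr10:88459534-88459559, at 24.8 and 45.3. Taf7l, at chrX:134476524-134476549, stood at 4.44 and 5.80 CPM and Stk31, at chr6:49395474-49395499, at 15.9 and 18.8. Hormad1, at chr3:95559647-95559672, and Slc25a31, at chr3:40708768-40708793, were lower in P42, the latter at 3.30 and 2.41 CPM. The starts are those of GRCm38.p6, the assembly that mm10 is also made from.

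Most developmental regulators known to be silenced by Polycomb had low counts. Of 18 such genes 14 had a mean under 1 CPM and 3 were detected in both libraries, Gata4, Gata6 and Eomes. Hoxd10, Nkx2-2, Nkx6-1 and Neurog2 had 0 counts in both libraries, which allows up to 0.0712 CPM in P33 and 0.0794 in P42. Called higher in P42 were Gata4, at 4.60 CPM in P33 and 12.3 in P42, Gata6, at 3.25 and 8.42, and Sox17, at 0.569 and 2.49, which passed the minimum through P42 alone. All 3 are transcription factor genes of primitive endoderm, whose 7 markers include them and of which the 6 whose mean reached 1 CPM were called higher in P42, beside 5.07% of all genes. Whether the level of PRC1 genes plays a part in these differences was not tested.

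Reads of overlapping or near-identical genes could bear on a few of the counts. The labels name a reverse-stranded protocol beside a TruSeq RNA kit, and the strand setting of the counting is not given in the sources used here. The exons of Rnf2 share 158 bases with Trmt1l on the opposite strand, those of Cbx7 100 bases with Apobec3 and those of Kdm2b 627 bases with Rnf34, which is 5.77% of the Kdm2b exons. Near-identical copies of at least 200 bases at 95% identity or more were found for 3 of the 10 genes. A processed pseudogene, Gm12397, matches Kdm2b over 615 bases and had 364 and 193 counts, Rybp-ps matches Rybp over 681 bases at 99.3% identity and had 264 and 135 counts, and Gm8930 matches Pcgf1 over 764 bases at 97.5%. Gm8930 was not among the counted identifiers. The split of reads between these copies and their genes is uncertain. Of the 3 genes with copies, Pcgf1, with under 300 counts a library, is the one whose level a few reads would move most.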

How the data were processed

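The authors deposited raw read counts per Ensembl gene, 1 table per library, with no normalization, per the file headers and values. STAR 2.4.2a, featureCounts 1.4.5-p1 and mm10 are named in the submitters' processing notes. Annotation release, strand and multi-mapping settings: not given in the sources used here. Of 43629 identifiers 42548 matched GENCODE M21 (GRCm38), which gave symbols, exon lengths and GC content. Those without a match held 0.155% (P33) and 0.174% (P42) of the counts.

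CPM used TMM factors from edgeR 4.0.16 (R 4.3.3). Log2 ratios used a prior count of 0.5, with exact Clopper-Pearson 95% intervals, which treat reads as independent molecules and cover counting error only, as does the limit of 3 counts for a gene with 0. The calls were tested on simulated data with 200 genes changed and counting error only. That test does not cover differences between libraries by chromosome or GC content. With 1 library per label no p-value was computed. Alternatives were total counts, DESeq2 1.42.0 size factors, other minimums, folds and prior counts, longest transcripts, and removal of the GC and length trend by lowess (span 0.3, statsmodels 0.14.6). Leaving out chromosomes 1 and 15 was chosen after seeing the data.

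The PRC1 genes and all lists were chosen with earlier results of these data known. The naming rule took the 10 genes, their paralogs, every called gene of the pathway, the 2 most abundant genes of each pathway list and the called genes of the target lists. Some genes of the lists are not reported here. Other genes named were chosen after their values were seen. Genes of a like pattern were not sought, since 2 libraries give every pair a correlation of 1 or −1. Copies were sought with blastn 2.17.0 against the GENCODE transcripts, overlaps with bedtools 2.31.1, and promoter windows came from RefSeq.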

Additional observations from a re-analysis of the deposited data

How the results depend on the processing

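The 10 PRC1 genes gave 0 calls in each direction under total counts, DESeq2 size factors, a prior count of 2, no minimum, a minimum of 5 CPM (which leaves out Ring1), a 3-fold limit and the GC and length correction. Without chromosomes 1 and 15, which hold Rnf2 and Cbx7, the 8 genes left gave 0. At 1.5-fold 2 were higher and 1 lower. Their median log2 ratio was −0.13 with total counts, which lower every ratio by 0.14, and −0.0045 once the GC and length trend was taken out. Pcgf1 went to −0.06 with either step and Ring1 to 0.05 with the trend removed. All 10 were detected at 0.5 CPM and 9 at 5 CPM, all but Ring1. Of the other pathway genes 6 were higher and 7 lower at 1.5-fold. Lower were 2 with total counts (L3mbtl2, Scml2), 3 with the trend removed (L3mbtl2, Bmi1, Scml2), when Usp21 was the 1 called higher, and 0 at 3-fold. Without chromosomes 1 and 15 the count is 0 by construction, since L3mbtl2 lies on chromosome 15. Over all genes, higher and lower calls were 697 and 1310, 1080 and 2348 with no minimum, 425 and 665 at 5 CPM, 2207 and 2600 at 1.5-fold, 147 and 525 at 3-fold, and 466 and 1658 with total counts.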
